A study of Mus musculus with 6 samples.

Results

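Mural cells are the pericytes that wrap capillaries and the smooth muscle cells that sheathe arterioles. The 10 genes described here are widely used to recognize them or, in the case of *Pdgfb*, encode a ligand that recruits pericytes. They are *Pdgfrb*, *Rgs5*, *Abcc9*, *Anpep*, and *Notch3*, which mark pericytes or mural cells in general, the ligand gene *Pdgfb*, and the contractile and filament genes *Acta2*, *Tagln*, *Myh11*, and *Des*. They were listed by name, with earlier results of these data known, among 46078 genes with an entry in the count tables, and all 10 were among the 15554 genes that passed the filter on low counts and were tested. RNA was sequenced from 3 infarcts and 3 contralateral cortices of WT male C57BL/6J mice, with an age given as 3 months, at 7 weeks after stroke. Stroke was induced by permanent cauterization of the MCA followed by a period in low oxygen, so the mice that gave the contralateral tissue had also been through surgery and hypoxia. The infarct was cut out by eye and the control tissue is the equivalent region of the other hemisphere. Each library is therefore whole tissue with a mixture of cells, and in such a library fewer cells of a type and less RNA per cell cannot be told apart. The labels number the libraries within a region but do not tie an infarct to the contralateral cortex of the same mouse or name the mice, so *p* values describe the spread between these samples.

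In the wall of a brain vessel, endothelial cells release PDGF-B, which is retained near the vessel and recruits pericytes that carry the receptor PDGFR-β. Pericytes share the basement membrane with the endothelium and help to maintain the blood–brain barrier, and smooth muscle cells set vessel tone through a contractile apparatus of smooth muscle actin and myosin. After injury to the CNS, cells positive for PDGFR-β also appear in the fibrotic part of the scar, and several of the genes above are known from fibroblasts or leukocytes as well as from mural cells.

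Counts on genes ranged from 12146959 to 13427057 in infarcts and from 11943570 to 19933962 in contralateral cortices, and expression is given as CPM, the counts of a gene scaled to the size of its library with edgeR's TMM factors. Differences are given as log2FC, the log2 of infarct over contralateral expression, with its standard error (SE). The words upregulated and downregulated stand for an adjusted *p* under 0.05 together with more than a 2-fold difference. Of all tested genes, 25.7% were upregulated and 20.9% downregulated by this rule. Without TMM, on library totals alone, scaling raised the median log2FC of all genes by 0.20, and each log2FC below holds on the TMM scale.

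Of the 10 genes, 8 were upregulated in infarcts and none was downregulated. The median log2FC was 1.58, where that of all tested genes was 0.03. Values ran from 0.23 for *Abcc9* to 5.75 for *Anpep*, so genes that are used for the same cells differed widely. Without the fold change threshold 9 genes had an adjusted *p* under 0.05, all in the upward direction, where 34.2% of all tested genes were raised and 30.8% lowered by that rule. In 9 genes every infarct lay above every contralateral cortex, against 37.6% of all tested genes. Infarct 1 was the highest infarct for all 10 genes, which was so for 36.5% of all tested genes and for 60.5% of upregulated genes. Contralateral cortex 3 was the highest on its side for 9 of the 10 genes, all but *Abcc9*, which was so for 37.6% of all tested genes.

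**Figure D1:**
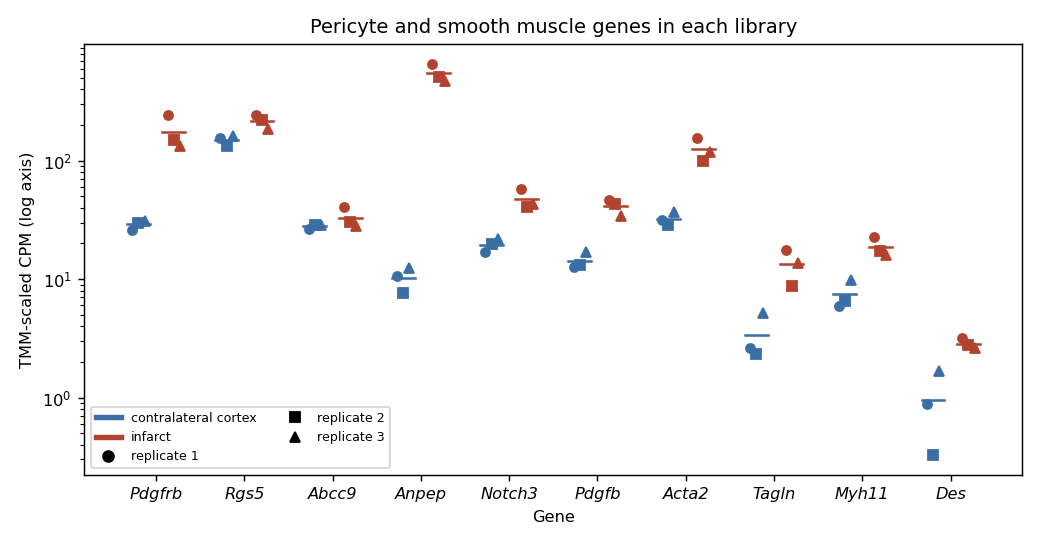
Expression of the 10 genes in each library as TMM-scaled CPM on a log axis. Symbols are libraries, coded by replicate number, and short lines are the means of 3 infarcts (red) or 3 contralateral cortices (blue). The regions overlap for *Abcc9* only, while *Anpep* has the widest gap.

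*Pdgfrb* (ENSMUSG00000024620, GRCm38 chromosome 18, 61045150 to 61085061, plus strand) encodes the PDGF receptor β of pericytes, a tyrosine kinase that is also found on fibroblasts. It was measured at 242, 148 and 134 CPM in infarcts 1, 2 and 3 and at 26.1, 29.9 and 30.8 CPM in contralateral cortices 1, 2 and 3. The contralateral values lay close together, and the lowest infarct was well above all of them. The log2FC was 2.59, a 6.04-fold increase (SE 0.23, adjusted *p* = 1.00e-05, edgeR). This and every later adjusted *p* comes from the quasi-likelihood test in edgeR after Benjamini-Hochberg correction over all tested genes. Infarct 1 held 1.81 times the level of the lowest infarct, and without it the log2FC was 2.31.

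*Pdgfb* (ENSMUSG00000000489, chromosome 15, 79995874 to 80014977) encodes the ligand that endothelial cells, and also platelets and macrophages, release. Infarcts 1, 2 and 3 had 46.7, 43.1 and 34.1 CPM, and contralateral cortices 1, 2 and 3 had 12.7, 13.2 and 17.0 CPM. The lowest infarct was therefore still above the highest contralateral cortex. The log2FC was 1.53 (SE 0.19, adjusted *p* = 7.78e-05, edgeR). Within a library, the receptor outnumbered its ligand in both regions, by a log2 ratio of counts between 0.86 and 1.18 in contralateral cortices and between 1.78 and 2.37 in infarcts. Counts of different genes also differ with transcript length, so only the change of such a ratio between regions compares expression.

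*Rgs5* (ENSMUSG00000026678, chromosome 1, 169655501 to 169695813) encodes a regulator of G protein signaling that is abundant in brain pericytes and arterial smooth muscle. It had 242, 222 and 185 CPM in infarcts 1, 2 and 3 and 155, 134 and 162 CPM in contralateral cortices 1, 2 and 3. All infarct values lay above the contralateral values, but by little. The log2FC was 0.53, a 1.44-fold difference (SE 0.16, adjusted *p* = 0.0138, edgeR), which passed the *p* threshold but not the fold change threshold. Without contralateral cortex 2 the adjusted *p* was 0.0666.

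*Abcc9* (ENSMUSG00000030249, chromosome 6, 142587862 to 142702315) encodes SUR2, the sulfonylurea receptor subunit of ATP-sensitive potassium channels in mural cells. Infarcts had 40.9, 30.1 and 28.0 CPM, and contralateral cortices had 26.4, 28.9 and 28.9 CPM. The regions overlapped, with only infarct 1 clearly above the contralateral range. The log2FC was 0.23 (SE 0.18, adjusted *p* = 0.283, edgeR), and without infarct 1 it was 0.07. With scaling by library totals it was 0.43 with an adjusted *p* of 0.0466. A change of *Abcc9* was thus not detectable on the TMM scale, and these values do not show that its expression was equal in both regions.

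*Anpep* (ENSMUSG00000039062, chromosome 7, 79821803 to 79861059) encodes aminopeptidase N (CD13), a cell surface peptidase of brain pericytes that is also a classical marker of monocytes and is carried by fibroblasts. It reached 661, 513 and 469 CPM in infarcts 1, 2 and 3, against 10.6, 7.62 and 12.5 CPM in contralateral cortices. No other gene of the 10 separated the regions as far. The log2FC was 5.75, a 53.7-fold increase (SE 0.25, adjusted *p* = 1.88e-07, edgeR), and it ranked 433 from the top among all tested genes.

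*Notch3* (ENSMUSG00000038146, chromosome 17, 32120820 to 32166852) encodes the Notch receptor of mural cells, which is mutated in the small vessel disease CADASIL. It had 57.7, 40.9 and 43.2 CPM in infarcts 1, 2 and 3 and 17.0, 19.9 and 22.0 CPM in contralateral cortices. The regions did not overlap, and infarct 1 was again the highest. The log2FC was 1.27 (SE 0.19, adjusted *p* = 2.41e-04, edgeR). Exons of an antisense gene cover 6.03% of the exon bases of *Notch3*, and that gene had at most 9 counts in any library.

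*Acta2* (ENSMUSG00000035783, chromosome 19, 34241090 to 34255590, minus strand) encodes α-smooth muscle actin, the main actin of arterial smooth muscle and of myofibroblasts. It is a textbook target of serum response factor, which binds the CArG box, a motif of CC, an AT-rich core of 6 bases and GG. In the RefSeq promoter window on GRCm38.p6, from 250 bases before the start to 50 after it, *Acta2* held matches at 84 and 34 bases before the start, each with 1 G or C in the core. Both are shown because *Acta2* was the only gene with a match among the 6 of the 10 whose windows could be searched. The CArG box is in capitals, within 10 bases on either side, and the sequence is read on the strand of the gene.
*Acta2* CArG box at chr19:34255438-34255467: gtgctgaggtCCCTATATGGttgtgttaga
*Acta2* CArG box at chr19:34255388-34255417: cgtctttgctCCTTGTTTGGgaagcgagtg

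Both stretches lie inside the span that GENCODE annotates for *Acta2*, which begins further upstream than the RefSeq start of the window. The RefSeq table held windows for 6 of the 10 genes, and those of *Rgs5*, *Abcc9*, *Anpep*, *Des*, and *Notch3* had no match with at most 1 G or C in the core, on either strand. *Pdgfrb*, *Pdgfb*, *Tagln*, and *Myh11* were not in the table. The same search was run on the further smooth muscle and pericyte genes described below. Of those with windows, 2 of 18 smooth muscle genes and 2 of 17 pericyte genes held a match. Of all 32851 windows of this length in the table, 9.98% held a match and 0.822% held 2 or more. The search with 1 G or C allowed was chosen after a search for a core of A and T alone, which 1.63% of windows hold, found no match in the 6 genes. A match describes letters and not binding.

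For *Acta2* itself, infarcts 1, 2 and 3 had 155, 100 and 119 CPM, and contralateral cortices had 31.6, 28.7 and 36.9 CPM. Every infarct was above every contralateral cortex by a wide margin. The log2FC was 1.94, a 3.85-fold increase (SE 0.19, adjusted *p* = 1.64e-05, edgeR). *Srf*, the gene of serum response factor, had 17.2 ± 1.07 CPM (SD, n = 3) in infarcts against 18.5 ± 0.306 CPM contralaterally (log2FC -0.11, adjusted *p* = 0.566, edgeR). Its coactivator gene *Myocd*, chosen after its values were seen, had 1.01 ± 0.242 CPM and 0.629 ± 0.328 CPM (adjusted *p* = 0.285, edgeR).

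*Tagln* (ENSMUSG00000032085, chromosome 9, 45929619 to 45936058) encodes transgelin (SM22α), an actin-binding protein of smooth muscle that myofibroblasts and other mesenchymal cells also make. It had 17.8, 8.66 and 13.8 CPM in infarcts 1, 2 and 3 and 2.61, 2.34 and 5.17 CPM in contralateral cortices. The spread within each region was about as wide on a relative scale, since the highest library held 2.05 times the lowest among infarcts and 2.20 times among contralateral cortices. The regions still did not overlap, with a log2FC of 2.02 (SE 0.37, adjusted *p* = 9.89e-04, edgeR). *Pcsk7*, which runs in the opposite direction, overlaps 5.43% of the exon sequence of *Tagln*. A further antisense gene of GENCODE that covers 62.4% of them has no entry in the count tables.

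*Myh11* (ENSMUSG00000018830, chromosome 16, 14194535 to 14291372) encodes the smooth muscle myosin heavy chain, the most restricted marker of the contractile state among these genes. It had 22.6, 17.2 and 16.0 CPM in infarcts 1, 2 and 3 and 5.90, 6.58 and 9.78 CPM in contralateral cortices. The groups did not overlap, though contralateral cortex 3 came nearer to the infarcts than the others did. The log2FC was 1.34 (SE 0.24, adjusted *p* = 8.62e-04, edgeR).

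*Des* (ENSMUSG00000026208, chromosome 1, 75360329 to 75368579) encodes desmin, the intermediate filament of muscle cells and of many pericytes. It was the least counted of the 10, with 40, 38 and 38 counts in infarcts 1, 2 and 3 and 17, 5 and 18 counts in contralateral cortices 1, 2 and 3. As CPM these were 3.19, 2.79 and 2.59 in infarcts and 0.888, 0.326 and 1.66 in contralateral cortices. The infarcts agreed closely while the contralateral values spread 5.10-fold, so the size of the change is poorly fixed. The log2FC was 1.62 (SE 0.50, adjusted *p* = 0.0161, edgeR). With contralateral cortex 2 left out it was 1.19 and with the third left out 2.18, and with the first left out the call was lost (adjusted *p* = 0.0600, edgeR).

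**Figure D2:**
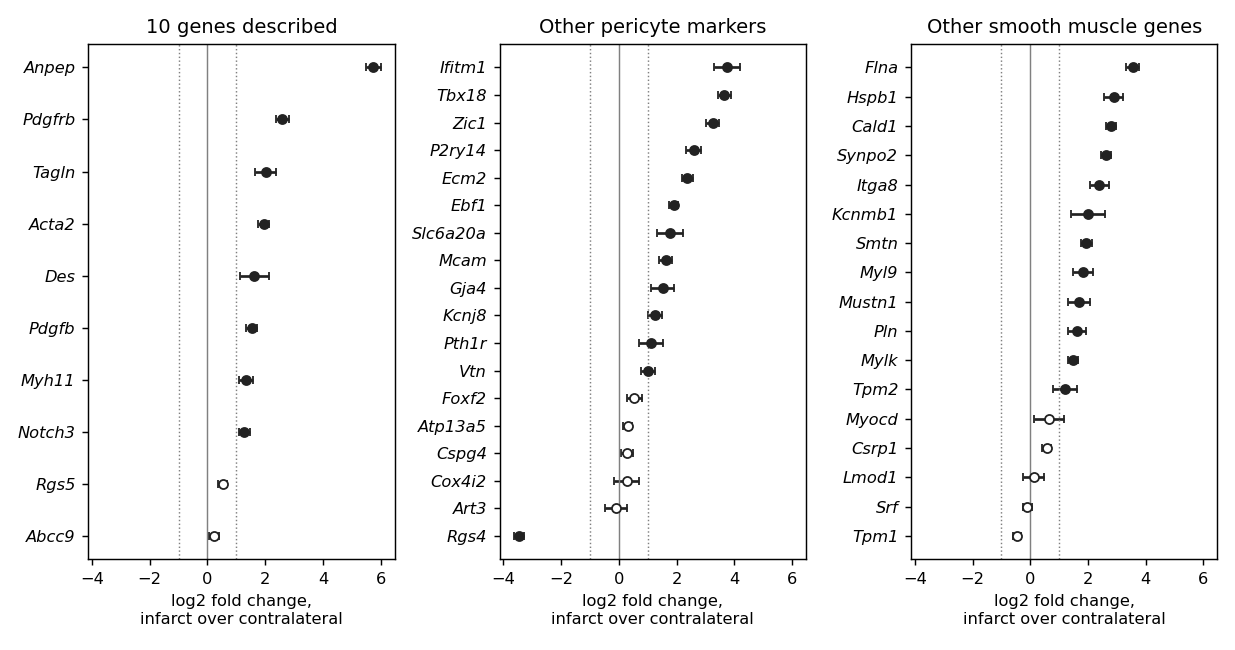
Log2FC values of infarct over contralateral cortex with standard errors, for the 10 genes, for other pericyte markers and for other smooth muscle genes that were tested. Filled points passed both thresholds, open points did not, and dotted lines mark a fold change of 2. *Rgs5* at 0.53 and *Abcc9* at 0.23 are the open points among the 10 genes.

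Ratios of counts between a pair of genes within a library do not depend on how libraries are scaled. The log2 ratio of *Pdgfrb* to *Abcc9* was between -0.02 and 0.09 in contralateral cortices and between 2.25 and 2.56 in infarcts. The log2 ratio of *Pdgfrb* to *Rgs5* went from a mean of -2.38 ± 0.209 (SD, n = 3) in contralateral cortices to -0.35 ± 0.308 in infarcts. Both ratios separated the regions, so *Pdgfrb* was higher relative to *Abcc9* and to *Rgs5* in every infarct than in any contralateral cortex. *Anpep* moved further still, with a log2 ratio to *Pdgfrb* between -1.97 and -1.30 in contralateral cortices and between 1.45 and 1.81 in infarcts. *Notch3* stood in between, since its log2 ratio to *Pdgfrb* was lower in infarcts by a mean difference of -1.29 and its log2 ratio to *Rgs5* was higher by 0.74. An exact permutation test of 3 against 3 libraries cannot give a *p* under 0.1, and the ratios are given as values without a test.

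Among the contractile genes, the log2 ratio of *Acta2* to *Rgs5* was between -2.30 and -2.13 in contralateral cortices and between -1.15 and -0.64 in infarcts. The log2 ratio of *Myh11* to *Acta2* was between -2.42 and -1.91 in contralateral cortices and between -2.88 and -2.54 in infarcts, so every infarct held less *Myh11* relative to *Acta2* than any contralateral library did. For *Tagln* to *Acta2* the regions overlapped, with means of -3.34 ± 0.442 (SD, n = 3) in contralateral cortices and -3.25 ± 0.238 in infarcts. The log2 ratio of *Abcc9* to *Rgs5* differed by -0.31 between the means of the regions, and infarct 1, at -2.57, lay next to contralateral cortex 1, at -2.55.

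**Figure D3:**
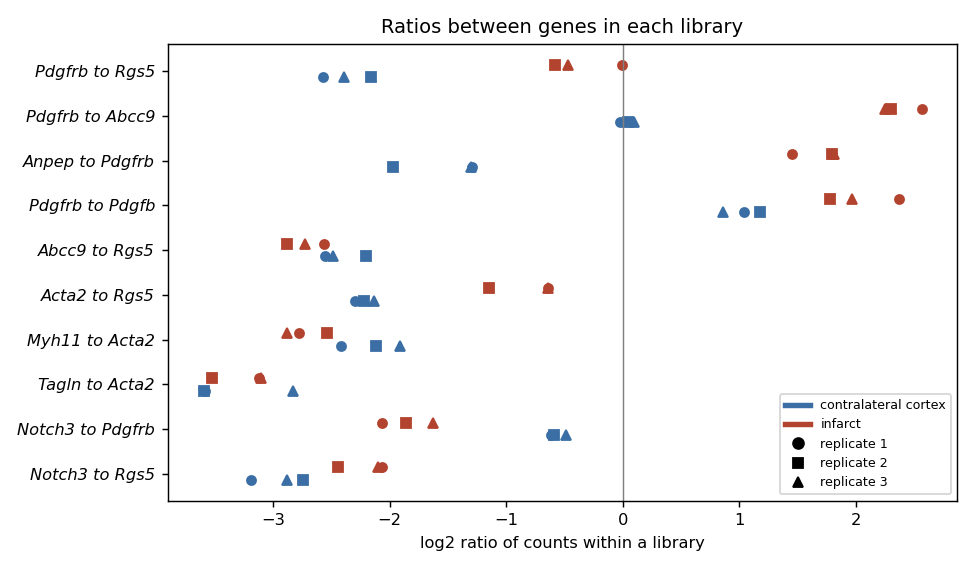
Log2 ratio of the counts of a pair of genes within each library, with infarcts in red and contralateral cortices in blue and symbols coding the replicate number. Points to the right mean more of the first gene. *Pdgfrb* to *Abcc9* lies near 0 in contralateral cortices and above 2.25 in infarcts, whereas *Tagln* to *Acta2* overlaps.

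To compare levels between genes, CPM were divided by the length of the merged exons in kilobases. In contralateral cortices *Rgs5* had the highest level, 33.1 ± 3.30 CPM per kilobase (SD, n = 3), followed by *Acta2* with 14.8 ± 1.89 and *Pdgfrb* with 5.28 ± 0.460. *Pdgfb* and *Abcc9*, at 3.44 ± 0.562 and 3.35 ± 0.170 CPM per kilobase, did not differ beyond their spread. *Anpep* and *Notch3* overlapped as well, with 2.47 ± 0.591 and 2.42 ± 0.310. The ranges of *Notch3* and *Tagln*, and of *Tagln* and *Myh11*, also overlapped across libraries. Within each contralateral library, however, *Notch3* was above *Tagln* and *Tagln* above *Myh11*. *Des* was lowest, at 0.255 ± 0.179 CPM per kilobase. In infarcts the order began with *Anpep* at 133 ± 24.4 CPM per kilobase. *Acta2* and *Rgs5* followed at 56.7 ± 12.7 and 47.6 ± 6.36, which overlapped, and *Pdgfrb* stood at 31.9 ± 10.7. Its range across infarcts overlapped with that of *Rgs5*, but *Rgs5* was above *Pdgfrb* within each infarct. *Abcc9* moved from place 5 to place 8, with 3.94 ± 0.825 CPM per kilobase, below *Pdgfb*, *Tagln*, and *Notch3*. *Myh11* and *Des* kept the last places, at 2.45 ± 0.463 and 0.761 ± 0.0804 CPM per kilobase.

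**Figure D4:**
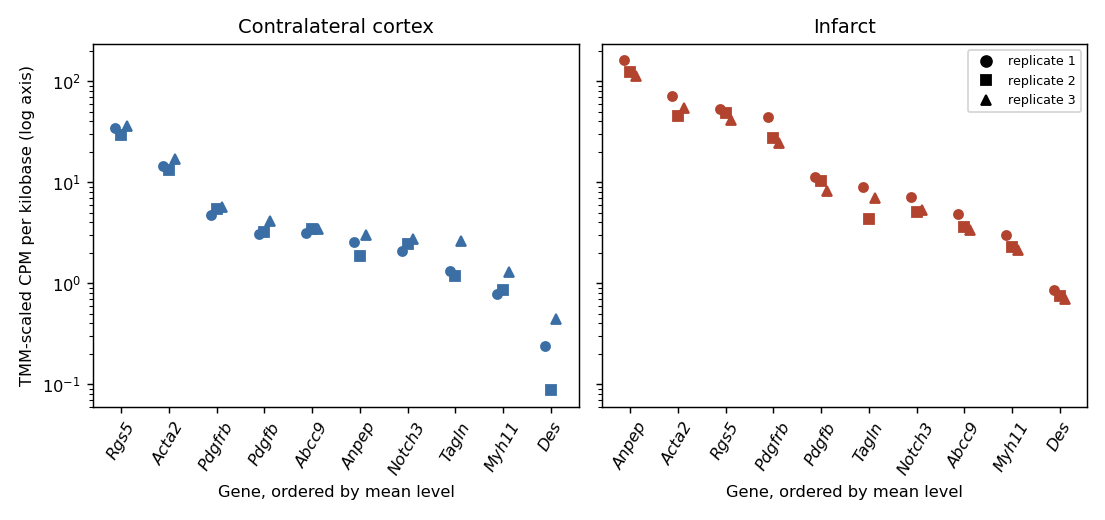
Level of each gene as TMM-scaled CPM per kilobase of merged exons, on a log axis, ordered by the mean within each region. Each symbol is a library. *Rgs5* leads in contralateral cortices and *Anpep* in infarcts, where *Anpep* was at place 6 in contralateral cortices.

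Other pericyte markers were as mixed. Of 20 further genes, 18 were tested, of which 12 were upregulated and 1 downregulated, with a median log2FC of 1.39. The largest increases were those of *Ifitm1*, with a log2FC of 3.74, and of *Tbx18* and *Zic1*, genes of transcription factors that meningeal cells also express, with 3.66 and 3.25. At the other end, *Rgs4*, which cortical neurons also express, was downregulated with a log2FC of -3.47, and *Art3* had -0.09 (adjusted *p* = 0.848, edgeR). *Atp13a5*, a gene of a cation-transporting ATPase with expression in the brain largely restricted to pericytes, had 20.3 ± 0.870 CPM (SD, n = 3) in infarcts against 16.4 ± 1.14 CPM contralaterally, a log2FC of 0.30 (adjusted *p* = 0.118, edgeR). *Cspg4*, the gene of the proteoglycan NG2 on pericytes and oligodendrocyte precursors, had a log2FC of 0.29 (adjusted *p* = 0.248, edgeR). *Vtn*, which encodes vitronectin, was upregulated with a log2FC of 1.01 (adjusted *p* = 0.00525, edgeR). *Higd1b*, another marker of brain pericytes, had at most 4 counts in any library and was not tested. *Ndufa4l2*, the other untested gene of the list, had 0 to 13 counts in a library. The markers written down for the pericyte label were *Pdgfrb*, *Rgs5*, *Abcc9*, *Anpep*, *Notch3*, *Kcnj8*, *Cspg4*, *Vtn*, *Higd1b*, and *Atp13a5*. All of these but *Higd1b* passed the filter on low counts. *Pdgfrb*, *Rgs5*, *Abcc9*, *Anpep*, and *Notch3* are themselves among the genes described here. Passing the filter shows only that a gene had counts in whole tissue, so it cannot tell which cells the transcripts came from. The cell source of these transcripts was not tested.

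Of 20 further smooth muscle genes, 17 were tested and 12 were upregulated, with a median log2FC of 1.69. The largest increases were in genes of the actin cytoskeleton that many cells share, *Flna* with 3.54 and *Cald1* with 2.78, and in the heat shock gene *Hspb1* with 2.89. *Smtn*, *Myl9*, *Mylk*, and *Tpm2*, which encode proteins of the contractile apparatus, had log2FC values of 1.94, 1.82, 1.49 and 1.20 and were upregulated. *Lmod1*, an actin nucleator of smooth muscle, had 1.58 ± 0.353 CPM (SD, n = 3) in infarcts against 1.45 ± 0.245 CPM contralaterally (adjusted *p* = 0.790, edgeR). *Cnn1*, the gene of smooth muscle calponin, had 4 to 11 counts in each library and was not tested. *Tpm1*, a tropomyosin gene with wide expression, had an adjusted *p* of 0.0111 (edgeR) and a log2FC of -0.46, which did not reach the fold change threshold.

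In the PDGF family, 4 of the 5 other genes were upregulated. *Pdgfrl*, a gene for a receptor-like protein, had the largest log2FC, 4.17, and the ligand genes *Pdgfd* and *Pdgfc* had 2.79 and 2.05. *Pdgfra*, which encodes the receptor of fibroblasts and oligodendrocyte precursors, rose from 102 ± 7.99 CPM (SD, n = 3) to 383 ± 103 CPM, a log2FC of 1.90. *Pdgfa*, the ligand gene that neurons and astrocytes express, had 41.3 ± 8.04 CPM in infarcts against 42.1 ± 3.57 CPM contralaterally (log2FC -0.03, adjusted *p* = 0.893, edgeR). An antisense gene overlaps 26.1% of the exon sequence of *Pdgfa*.

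In the Notch pathway, 12 of 14 further genes were tested, of which 8 were upregulated and 1 downregulated. The receptor gene *Notch2* rose from 26.8 ± 1.29 CPM (SD, n = 3) to 291 ± 54.2 CPM, a log2FC of 3.44 beside 1.27 for *Notch3*. The ligand gene *Jag1* and *Heyl*, a target gene that is prominent in mural cells, were upregulated with log2FC values of 2.39 and 2.02. *Jag2* was downregulated with -1.58, and *Hey1* had -0.35 (adjusted *p* = 0.0892, edgeR).

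The channel that *Abcc9* helps to form has *Kcnj8* as its pore in pericytes. *Kcnj8* had 7.73, 6.98 and 5.32 CPM in infarcts 1, 2 and 3 and 3.13, 2.54 and 2.68 CPM in contralateral cortices, so the regions did not overlap. It was upregulated with a log2FC of 1.25 (SE 0.26, adjusted *p* = 0.00187, edgeR), beside 0.23 for *Abcc9*. The difference between the 2 genes was not tested. *Abcc8* and *Kcnj11*, which form the channel of neurons, were downregulated with log2FC values of -3.05 and -3.08.

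Among 8 other RGS genes of the same subfamily as *Rgs5*, 7 were tested, 4 were upregulated and 2 downregulated. *Rgs1* and *Rgs18*, genes of leukocytes, had log2FC values of 7.56 and 4.79, *Rgs3* had 1.39, and *Rgs8*, like *Rgs4*, was downregulated, with -2.47. Of the contralateral libraries, only 1 held any counts of *Rgs1*, namely 6, so its fitted value depends on the prior count. The log2FC of *Rgs5* was smaller in size than those of all 7 tested relatives, the nearest being that of *Rgs2* with 0.84, which was named after its values were seen.

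Of the other actin genes, *Actb* and *Actg1*, which encode the cytoplasmic actins, were upregulated with log2FC values of 1.65 and 1.25, beside 1.94 for *Acta2*. *Acta1*, the skeletal muscle actin, had 0.529 ± 0.258 CPM (SD, n = 3) in infarcts against 10.4 ± 1.17 CPM on the other side and was downregulated (log2FC -4.25). *Actc1* had 0 counts in every library, which does not show that it was absent, and *Actg2* had 1 count in all. The actin genes have similar coding sequences and reads could be split among them, so the level of *Acta2* is uncertain to that extent. Among other intermediate filament genes, *Vim* and *Gfap* were upregulated with log2FC values of 5.29 and 4.81 and *Nes* with 1.23, while *Synm*, the gene of a partner of desmin, had 0.79 (adjusted *p* = 4.31e-04, edgeR) and did not reach the fold change threshold.

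TGF-β signaling governs the maturation of mural cells and the formation of myofibroblasts. All 8 of its ligand and receptor genes that were listed were upregulated, with a median log2FC of 2.43. *Tgfb1* had the largest, 4.55, followed by *Tgfbr2* with 3.42 and *Tgfb3* with 2.46, and *Acvrl1* and *Eng*, receptor genes of the endothelium, had the smallest, 2.01 and 1.37.

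Marker genes of other cell types also differed between the regions, some lists upward and some downward, and their part in these results was not tested. The summed expression of 14 fibroblast and meningeal markers was 8718 to 10701 CPM in infarcts and 358 to 458 CPM in contralateral cortices. Of its 13 tested genes all were upregulated, with a median log2FC of 6.16, from 1.50 for *Slc6a13* and 1.90 for *Pdgfra* to 6.73 for *Col1a1*, 7.28 for *Lum* and 7.35 for *Col3a1*, and only *Dpt* was near 0, with at most 6 counts in a library. The summed expression of 12 myeloid markers was 6666 to 10664 CPM in infarcts and 240 to 324 CPM in contralateral cortices, and all 12 were upregulated, with a median of 4.73. Among them *Itgax*, *Lyz2*, and *Ccr2* had log2FC values of 9.14, 8.45 and 7.14, and *Csf1r* and *Cx3cr1*, which microglia also express, had the smallest, 1.96 and 1.59. In the same libraries the summed expression of the 10 genes described here was 1044 to 1489 CPM in infarcts and 271 to 327 CPM in contralateral cortices.

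Of 14 endothelial markers, 7 were upregulated and none was downregulated, with a median log2FC of 0.91. *Cdh5*, *Abcb1a*, and *Pecam1* had log2FC values of 2.06, 1.92 and 1.75, whereas *Slco1a4* and *Flt1* had -0.19 and -0.14 (adjusted *p* = 0.284 and 0.384, edgeR). Their summed expression was 834 to 1131 CPM in infarcts and 553 to 699 CPM in contralateral cortices, so the endothelial list, like that of pericytes, held genes that rose and genes without a detectable change. All 10 neuronal markers were downregulated, with a median of -2.90, with log2FC values from -3.84 for *Snap25* to -2.38 for *Tubb3*. Their sum was 700 CPM in infarct 1, 1037 CPM in infarct 2 and 1857 CPM in infarct 3. Infarct 1, in which all 10 genes were highest, thus held the least neuronal RNA by this measure. Among infarcts it also had the highest sums of the fibroblast, myeloid and endothelial lists. The same held for the further pericyte and smooth muscle genes and for the PDGF, Notch, actin, TGF-β and skeletal muscle lists. The sums of the intermediate filament and RGS genes were highest in other infarcts. That of the channel genes was 10.9 CPM in infarct 1 and also in infarct 3. How these sums relate to the 10 genes was not tested. Of 12 skeletal muscle markers, 9 were too scarce to be tested, among them *Ckm* with 0 counts in every infarct and *Myh4* with at most 1 in an infarct. Some of the 9 had more counts in infarcts, such as *Tnni2* with 7, 12 and 7 in infarcts and 0, 1 and 0 in contralateral cortices. *Mylpf* had 7, 5 and 8 against 0, 1 and 0. Others had fewer counts in infarcts, such as *Myh2* with 0, 0 and 0 against 13, 6 and 20. *Myh1* had 0, 3 and 1 against 6, 9 and 5, and *Mb* had 0, 3 and 0 against 7, 7 and 4. These genes were named after their values were seen. None of the list was upregulated by edgeR, but 2 genes were with DESeq2 and 3 with edgeR when no filter on low counts was used. Each of these alternatives also called 3 genes of the list downregulated, against 2 in the main fit. The summed expression of the list was lower in infarcts, at 4.37 to 6.21 CPM, than in contralateral cortices, at 22.4 to 29.5 CPM, where *Acta1* and *Pvalb* made up most of it. *Pvalb* had a mean of 11.7 CPM contralaterally and 1.67 CPM in infarcts, a log2FC of -2.81 beside the neuronal median of -2.90. The lower sum therefore follows *Acta1* and *Pvalb* and does not show that muscle RNA was lower in infarcts. Which cells these transcripts came from was not tested.

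**Figure D5:**
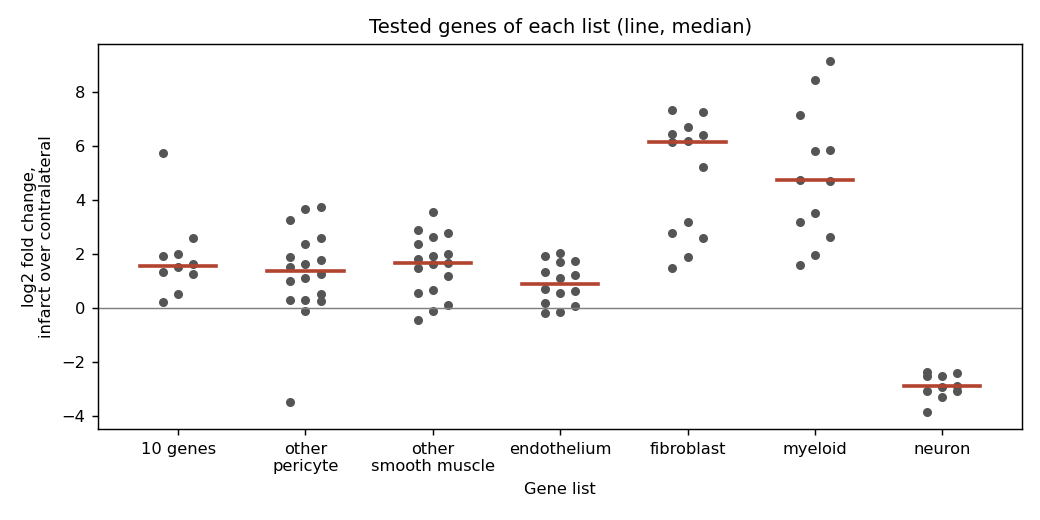
Log2FC values of infarct over contralateral cortex for the tested genes of each list. Points are genes and red lines are medians, which stand at 1.58 for the 10 genes, 1.39 for other pericyte markers, 1.69 for other smooth muscle genes, 0.91 for endothelium, 6.16 for fibroblasts, 4.73 for myeloid cells and -2.90 for neurons.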

How the data were processed

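Per the methods of the study and the submitters' processing notes, the authors prepared stranded mRNA libraries, used bcl2fastq 2.19 for demultiplexing, Trimmomatic 0.32 for adaptor removal and STAR 2.5.2b for alignment to GRCm38, and deposited raw counts per Ensembl gene from htseq-count. Its version, annotation and strand setting are not given in the sources used here. Reads without a gene, tallied in 5 extra entries and making up 26.6% to 34.3% of each file, were left out. Symbols, positions and exon lengths were taken from GENCODE M21 (GRCm38), which matched 45143 of 46078 identifiers.

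The tests were run with edgeR 4.0.16 (R 4.3.3) on the deposited counts, using filterByExpr, TMM and the quasi-likelihood test with region as the only term, and *p* values were adjusted over all tested genes with the Benjamini-Hochberg method. The study used DESeq2, run here as an alternative (1.42.0) with limma voom (3.58.1), other scalings, filters and thresholds, the replicate number as a block, and each library left out in turn. Standard errors were computed from the fold change and its F statistic. Ratios used counts with 0.5 added. The procedure was tested on simulated data of 15327 genes, in which 195 of 199 genes changed 4-fold were called, with 6 unchanged genes. Far fewer genes changed there than the 7255 called in the real data, and every simulated gene had the same dispersion. The simulation therefore does not show how TMM or the calls hold when so many genes differ.

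The 10 genes and the gene lists were chosen with earlier results of these data known. Named genes are the 10, all PDGF, channel, actin and filament genes, and the markers written down for the cell type labels. From the other lists, genes with the 3 largest and the 2 lowest log2 fold changes are named. *Myocd*, *Rgs2*, *Ndufa4l2*, *Tnni2*, and *Mylpf* were named outside this rule. Promoter windows came from RefSeq on GRCm38.p6.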

Additional observations from a re-analysis of the deposited data

How the results depend on the processing

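All 10 genes kept the sign of their log2 fold change in each of the 159 values over 16 alternatives, and 154 of these also kept their call, which needs both thresholds. The settings with no fold change threshold and with glmTreat keep the fit of the main result, so their signs could not change. Leaving glmTreat aside, the adjusted *p* alone crossed 0.05 without a change of call for *Rgs5* without contralateral cortex 2 (0.0666) and for *Abcc9* with library totals (0.0466). *Des* had no value with a minimum of 10 counts in every library, which it does not reach. When glmTreat was used to test for more than a 2-fold difference, 5 genes were upregulated in place of 8, since *Myh11*, *Des*, and *Notch3* had adjusted *p* values of 0.0798, 0.111 and 0.0734 (edgeR). With each library left out in turn, 7 to 8 of the 10 genes and 7194 to 7782 of all genes were called, against 7255. Left-out libraries moved the difference between regions in log2 ratio to 1.85 to 2.14 for *Pdgfrb* to *Rgs5* and 2.24 to 2.39 for *Pdgfrb* to *Abcc9*. With the replicate block, edgeR and DESeq2 each called 8 of the 10 genes, as without it. The numbers share no documented origin: correlations of the deviations of same-numbered libraries were -0.21, 0.12 and 0.04, and infarct 1 correlated best with contralateral cortex 3. Over all genes, 10111 were called with no fold change threshold and 5293 with at least 10 counts in every library. Depth limits *Cnn1* and *Higd1b*, with at most 11 and 4 counts in a library, and *Des* in contralateral cortices, with 5 to 18 counts.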
